A study of Mus musculus with 4 samples.

Results

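Dual specificity phosphatases were examined as 10 genes of that name, Dusp1, Dusp2, Dusp3, Dusp4, Dusp5, Dusp6, Dusp7, Dusp10, Dusp16 and Dusp22. They were chosen by symbol, and all 10 were found among the 24028 genes of the table. The RNA came from macrophages sorted from the sciatic nerve of female mice at day 3 after nerve injury, from young mice of 3 months and aged mice of 15 months. All mice, young and aged, carried both reporters as heterozygotes (Cx3cr1-GFP+/- and Ccr2-RFP+/-), and the sorted cells are labelled CCR2+ Cx3cr1+. Both reporters are insertions at the gene itself, so every animal had an altered copy of Cx3cr1 and of Ccr2, and no group without injury was analysed here. From 7 to 8 mice per time point were pooled into 2 libraries per age, so that n = 2 throughout and pools take the place of animals.

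Dual specificity phosphatases remove phosphate from both tyrosine and threonine or serine. Many of them act on mitogen-activated protein (MAP) kinases, the ERK, JNK and p38 families, and so end the signal that these kinases carry from receptors to the nucleus. Several are transcribed in response to the same signal and form a negative feedback. In macrophages Dusp1 is known for limiting p38 and JNK activity and thereby the output of inflammatory cytokines. Dusp1 is also among the transcripts that tissue dissociation can induce.

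The promoters of Dusp1, the most abundant member, and Dusp5, the member with the widest difference between the ages, are given first, because both hold sequence elements known from signal-induced genes. Each run is 300 bases of GRCm38.p6 from RefSeq, 250 before the annotated start and 50 after it, written 5′ to 3′ on the strand of the gene. Capitals mark the cAMP response element TGACGTCA, the shorter site TGACG on either strand, and CArG boxes, the core of the serum response element.
Dusp1, minus strand, chr17:26508423-26508722: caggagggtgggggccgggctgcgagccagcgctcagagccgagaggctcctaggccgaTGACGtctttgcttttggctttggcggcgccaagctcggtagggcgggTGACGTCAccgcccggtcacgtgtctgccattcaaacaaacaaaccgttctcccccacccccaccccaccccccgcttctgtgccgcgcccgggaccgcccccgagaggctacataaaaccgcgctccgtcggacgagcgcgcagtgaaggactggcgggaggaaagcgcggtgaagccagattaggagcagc
Dusp5, plus strand, chr19:53528895-53529194: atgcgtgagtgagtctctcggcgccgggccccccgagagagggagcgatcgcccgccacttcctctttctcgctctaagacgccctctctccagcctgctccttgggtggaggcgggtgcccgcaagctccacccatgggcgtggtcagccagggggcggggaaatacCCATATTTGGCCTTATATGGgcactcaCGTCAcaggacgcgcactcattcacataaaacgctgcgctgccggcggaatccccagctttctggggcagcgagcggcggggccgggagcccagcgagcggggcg

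Taking the start site as position 0, the Dusp1 promoter held the full element TGACGTCA at -143 to -136, which matches TGACG on both strands, and another TGACG at -191 to -187. The Dusp5 promoter held 2 adjoining CArG boxes, at -82 to -73 and -72 to -63, and TGACG on the other strand at -55 to -51. Of 32851 RefSeq promoters of the same length, 1.79% held TGACGTCA on either strand, 20.8% held TGACG and 1.63% held a CArG box. Of the 10 genes, 9 had a promoter in the table, all but Dusp4, and only Dusp1 of these 9 had the full element and only Dusp5 a CArG box. TGACG was also present in Dusp2 and Dusp16. The E-box CACGTG, present in 7.15% of promoters, was found in Dusp1 and Dusp2, and neither the AP-1 core (TGACTCA or TGAGTCA, 5.20% of promoters) nor TATAAA (13.6%) was found in any of the 9. These matches describe the sequence and were not tested as binding sites.

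Levels are FPKM, the fragments counted per kilobase of a gene relative to all reads, deposited by the authors and put back on each library's own read total. The reads recovered from the table numbered 11246658 and 10537497 for the young and 8432640 and 9758078 for the aged libraries. Macrophage markers were high in all 4 libraries (summed FPKM of 12 markers 15680 and 12850 in young, 13750 and 10490 in aged), and Lyz2, the lysozyme of myeloid cells, was 7491 to 12270 FPKM and made up most of the sum. Of the 12 markers, 9 were lower and 3 higher in aged cells, with a median log2 difference of -0.20, and 5 had both aged libraries below both young ones against 1 above. Over all genes tested, 59.5% were lower, the median was -0.09, and 26.2% had both aged libraries below against 11.8% above. Itgam, the integrin CD11b, named after its values were seen, averaged 106.3 ± 0.544 FPKM in young and 64.3 ± 5.25 FPKM in aged pools (limma unadjusted p 0.00969, adjusted p 0.740). Aif1, which encodes IBA1, averaged 69.4 ± 10.7 and 32.9 ± 14.1 FPKM (limma unadjusted p 0.0146, adjusted p 0.740). Csf1r, with the highest log2 difference of the 12 (0.34), averaged 217 ± 55.1 FPKM in young and 270 ± 11.5 FPKM in aged pools. Both aged libraries of Csf1r lay above both young ones. Cd14, second to Lyz2 in level, averaged 985 ± 339 and 1095 ± 215 FPKM, with overlapping groups. Fibroblast markers differed between libraries, with 8 genes summing to 46.4 and 238 FPKM in young pools against 103 and 71.6 FPKM in aged pools. The summed level of 8 Schwann cell markers was 27.1 and 58.1 FPKM in young pools against 55.3 and 42.8 FPKM in aged pools, that of 7 endothelial markers 12.8 to 26.4 FPKM and that of 7 neutrophil markers 54.9 to 71.1 FPKM. Lymphocyte markers (9 genes) summed to 10.9 to 15.6 FPKM in 3 libraries and to 103 FPKM in aged replicate 2, where Cd3g, a chain of the T cell receptor complex, was 97.8 FPKM. Cd3d and Cd3e, of the same complex, were at most 0.582 FPKM in every library. Ngp and Retnlg, made by neutrophils, were listed at 0 in aged replicate 2, and Retnlg also in aged replicate 1. Their young values rested on few reads, at least 5 and 9 for Ngp and 1 and 7 for Retnlg. Cxcr2, another neutrophil marker, was 0.143 and 0.397 FPKM in young pools against 1.297 and 1.415 FPKM in aged pools. Of the 4 neutrophil markers tested, 3 were higher and 1 lower in aged cells, with a median log2 difference of 0.09. The part of the macrophage markers and of these other cells in the phosphatase levels was not tested, and in pooled bulk RNA fewer cells of a type and less RNA per cell cannot be told apart.

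The 10 transcripts spanned a wide range of levels. Dusp1 averaged 928 FPKM over the 4 libraries and ranked 39th of all genes. Dusp2 averaged 212 FPKM, Dusp5 91.6, Dusp3 77.2, Dusp6 61.5, Dusp16 22.2, Dusp22 10.1, Dusp7 8.62, Dusp10 4.72 and Dusp4 1.31 FPKM. The order was Dusp1 above Dusp2 above Dusp5 in every library, and the gaps from Dusp6 to Dusp16, from Dusp16 to Dusp22 and from Dusp10 to Dusp4 also exceeded the ranges of the 4 libraries. Dusp5 and Dusp3 overlapped, as did Dusp3 and Dusp6, Dusp22 and Dusp7, and Dusp7 and Dusp10. The order and shares of the genes also depend on the gene lengths used, with limits given below for Dusp1, Dusp2, Dusp5 and Dusp7. Among the genes above 0 in any library, Dusp1 lay at the 99.8th percentile of mean FPKM, Dusp6 at the 95.8th and Dusp4 at the 52.8th. Dusp1 alone made up 64.4% and 68.2% of the summed FPKM of the 10 genes of young pools, and 66.4% and 62.9% of aged pools.

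**Figure D1:**
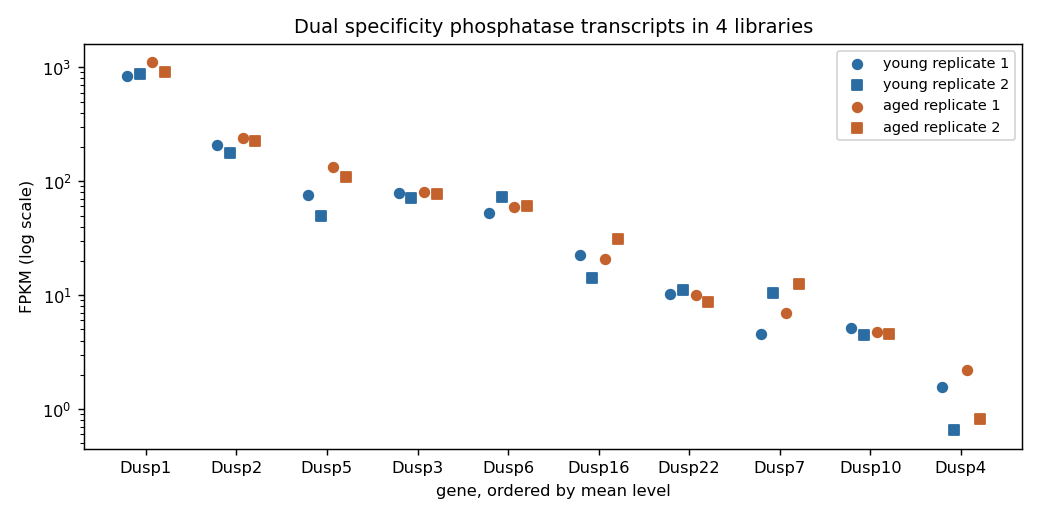
FPKM (log scale) of each of the 10 genes in the 4 libraries, ordered by mean level, with circles for replicate 1 and squares for replicate 2. Dusp1 stood above all others in every library, at 833 to 1103 FPKM, and Dusp4 was lowest, at 0.651 to 2.20 FPKM.

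The age difference was taken as aged less young in log2(FPKM + 1), a scale that compresses differences of low genes, and tested with limma over 11656 genes with a mean of at least 1 FPKM, which all 10 members reached. With Benjamini-Hochberg adjustment at 0.05, limma called 0 of the 10 members and 0 of all genes tested (0.0%). At an unadjusted p below 0.05 there was 1 member, and 773 of all genes, of which 205 were higher with age and 568 lower. The lowest adjusted p was 0.567 over all genes and 0.740 over the members. The labels do not tell how mice were shared out between the pools, so these p-values measure the spread between pooled samples, which may be technical.

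Dusp1, Dusp2, Dusp4 and Dusp5 encode nuclear phosphatases that growth factors and stress induce. Dusp5 acts on ERK alone. It was 75.3 and 49.1 FPKM in young pools against 133 and 109 FPKM in aged pools. Both aged libraries lay above both young ones, with means of 62.2 ± 18.5 and 121 ± 16.8 FPKM (SD, n = 2) and a ratio of 1.95. The log2 difference was 0.97 (SE 0.27, 95% interval 0.32 to 1.63), with an unadjusted limma p of 0.0105 and an adjusted p of 0.740. In order of p it stood 142nd of the 11656 genes. The difference lay between 0.67 and 1.28 with each library left out in turn. At least 611 to 1322 reads stood behind these values. Whole reads imply a gene length of 1155 bases or a multiple of it for Dusp5, where GENCODE M21 gives 2473 exon bases, so its level relative to other genes depends on the length used. Of those exon bases 22.1% overlap an antisense gene, AC137853.2, and without a stated strand the reads of both cannot be told apart. Dusp5 spans chromosome 19, 53529109 to 53542431 (GRCm38).

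Dusp1, also called MKP-1, prefers p38 and JNK. It was 833 and 878 FPKM in young pools against 1103 and 899.5 FPKM in aged pools. Both aged libraries lay above both young ones, but the gap between aged replicate 2 and young replicate 2 was small beside the gap within the aged pair. Means were 855 ± 31.7 and 1001 ± 144 FPKM, and the log2 difference was 0.22 (SE 0.21, 95% interval -0.28 to 0.72, limma adjusted p 0.825). Without aged replicate 1 it was 0.07. The gene lies on chromosome 17, 26505590 to 26562128 (GRCm38), a span that in GENCODE M21 reaches beyond the RefSeq gene, and at least 17446 reads were recovered in each library.

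Dusp2, also called PAC1 and expressed mainly in blood cells, was 208 and 176 FPKM in young pools against 240.2 and 225 FPKM in aged pools. The groups did not overlap, and the means were 192 ± 22.8 and 233 ± 10.6 FPKM. The log2 difference was 0.28 (SE 0.20, 95% interval -0.20 to 0.76, limma adjusted p 0.773), and the gap within the young pair was 0.24 on the same scale. Dusp4, or MKP-2, was the lowest of the 10, at 1.58 and 0.651 FPKM in young pools against 2.20 and 0.825 FPKM in aged pools. At least 44 and 17 reads and 46 and 20 reads were behind these values. Replicate 1 was the higher library in both ages. The log2 difference was 0.23 (SE 0.50, 95% interval -0.995 to 1.45, limma adjusted p 0.932).

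Dusp6 and Dusp7 encode cytoplasmic phosphatases selective for ERK. Dusp6, or MKP-3, a transcript that ERK activity itself raises, was 53.1 and 72.2 FPKM in young pools against 59.9 and 60.6 FPKM in aged pools. The young libraries lay on either side of the aged ones, and the log2 difference was -0.04 (SE 0.23, 95% interval -0.60 to 0.52, limma adjusted p 0.980). Dusp7 was 4.55 and 10.5 FPKM in young pools against 6.94 and 12.5 FPKM in aged pools. Replicate 2 was the higher library of Dusp7 in both ages, and the gaps within the young and aged pairs, 1.05 and 0.77 on the log2 scale, were wider than the difference of 0.38. Its whole reads imply a length of 1606 bases or a multiple, beside 3356 exon bases in GENCODE M21. Its level relative to other genes thus carries the same limit as that of Dusp5. The same holds for Dusp1, at 1942 bases or a multiple beside 3311, and for Dusp2, at 1618 or a multiple beside 2003.

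Dusp10 and Dusp16 encode phosphatases that act on JNK and p38 more than on ERK. Dusp16, or MKP-7, was 22.4 and 14.2 FPKM in young pools against 20.9 and 31.2 FPKM in aged pools. Aged replicate 1 lay between the young libraries, and the log2 difference of 0.49 (SE 0.32, 95% interval -0.29 to 1.27, limma adjusted p 0.764) was narrower than the gaps within either pair. Dusp10, or MKP-5, was 5.14 and 4.49 FPKM in young pools against 4.71 and 4.54 FPKM in aged pools. Both aged values of Dusp10 lay inside the young range, with a log2 difference of -0.04 (95% interval -0.74 to 0.66).

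Dusp3 and Dusp22 encode small atypical members that lack the kinase-binding domain of the MAP kinase phosphatases. Dusp3, or VHR, was 79.4 and 71.5 FPKM in young pools against 80.9 and 77.0 FPKM in aged pools. Its values overlapped between the ages, its 4 libraries lay closest together among Dusp1, Dusp2, Dusp3, Dusp5 and Dusp6, and the log2 difference was 0.07 (95% interval -0.41 to 0.54). Of its exon bases 12.9% overlap the antisense gene Gm20659. Dusp22, known to act in T cell receptor signalling, was 10.3 and 11.2 FPKM in young pools against 10.1 and 8.68 FPKM in aged pools. Both aged libraries of Dusp22 lay below both young ones, by a log2 difference of -0.18 (SE 0.25, 95% interval -0.79 to 0.43, limma adjusted p 0.891).

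**Figure D2:**
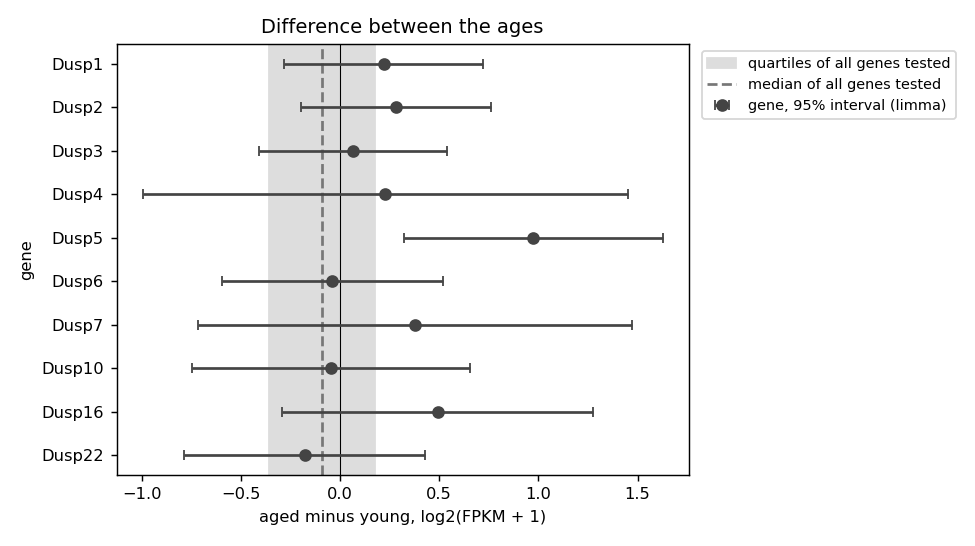
Aged minus young difference of each gene on the log2(FPKM + 1) scale, with 95% intervals from limma, over the quartiles (-0.36 to 0.18) and median (-0.09) of all genes tested. The interval of Dusp5, 0.32 to 1.63, was the only one of the 10 without 0 before adjustment.

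Over the 10 genes, 7 were higher and 3 lower in aged cells by mean log2 value, where 40.5% of all genes tested were higher. The median difference was 0.22, beside -0.09 over all genes. In 3 members, Dusp1, Dusp2 and Dusp5, both aged libraries lay above both young libraries, as they did in 11.8% of all genes tested. In 1 member, Dusp22, both lay below, as in 26.2% of all genes. In 8 of the 10 the gap within the young or the aged pair was wider than the difference between the ages. For the young pair alone this held in 6, and for the aged pair alone in 6. The same share over all genes is not given here. Leaving out aged replicate 1 brought the median down to 0.05.

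Summed by role, the 4 nuclear inducible genes were 1118 and 1103 FPKM in young pools against 1479 and 1235 FPKM in aged pools, most of it Dusp1. The ratio of the means was 1.22, which was 0.29 on the log2 scale and 0.15 without aged replicate 1. The 9 genes other than Dusp1 came to 434 ± 35.6 FPKM in young pools against 544 ± 20.5 FPKM in aged pools, and their groups did not overlap. The cytoplasmic pair Dusp6 and Dusp7 was 70.1 ± 17.7 and 70.0 ± 4.43 FPKM, and the atypical pair Dusp3 and Dusp22 was 86.2 ± 5.01 and 88.3 ± 3.72 FPKM. The JNK and p38 pair Dusp10 and Dusp16 was 23.1 ± 6.26 and 30.7 ± 7.15 FPKM, with aged replicate 1 inside the young range.

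**Figure D3:**
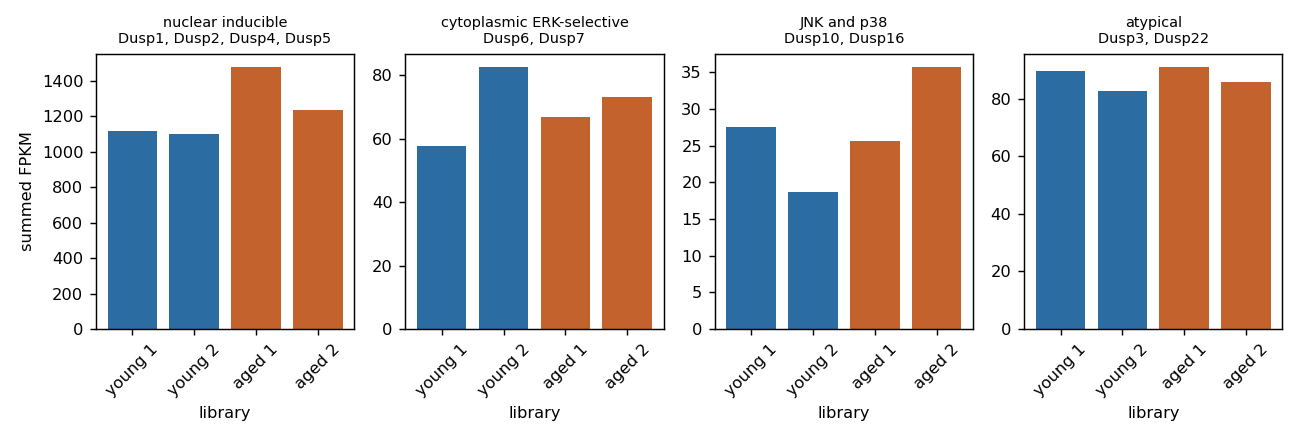
Summed FPKM of the 4 role groups in each library, with bars from 0 and a separate scale per panel. In the nuclear inducible group the aged bars, 1479 and 1235 FPKM, stood above the young bars, 1118 and 1103 FPKM, and the other groups overlapped between the ages.

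The other 16 genes with a Dusp or Styx symbol were low, with 9 of them reaching the minimum for testing and a summed FPKM of 50.8 to 60.4 per library. Of the 9, 6 were higher and 3 lower in aged cells by mean log2 value, with a median of 0.04, and limma called none, with 1 at an unadjusted p below 0.05. That median was 0.12 without young replicate 1, 0.08 without young replicate 2, 0.11 without aged replicate 1, 0.08 without aged replicate 2 and -0.10 in the values as deposited, and it was 0.58 over the 3 genes with a mean of at least 5 FPKM. The most abundant were Dusp11, which acts on RNA, at 15.3 and 19.4 FPKM in young pools against 14.4 and 20.5 FPKM in aged pools, and Dusp18 at 8.42 and 6.84 against 14.1 and 9.90 FPKM. Dusp19 had the highest log2 difference, 1.06 (SE 0.38, limma adjusted p 0.740), with 3.18 and 3.44 FPKM in young pools against 5.57 and 11.3 FPKM in aged pools. Dusp12 had the lowest, -0.34, at 4.29 and 6.78 against 3.66 and 4.54 FPKM. Dusp9, another cytoplasmic ERK phosphatase, was at most 0.516 FPKM, and Dusp8, of the JNK and p38 group, was 0.829 to 1.68 FPKM.

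The levels of the MAP kinases, listed by symbol and not as targets of these phosphatases, ranged widely, and Mapk4, Mapk10, Mapk11 and Mapk15 had means below 1 FPKM. Of 13 MAP kinase genes, 9 were tested, 3 with a higher and 6 with a lower mean in aged cells, and the median was -0.27. Mapk14, p38 alpha, was the most abundant, at 91.5 and 121.6 FPKM in young pools against 89.7 and 82.2 FPKM in aged pools, with both aged libraries below both young ones. Mapk3, ERK1, was 46.0 and 57.3 against 57.8 and 42.9 FPKM, with overlapping groups. Mapk13, p38 delta, had the lowest difference, -1.35 (SE 0.95), which came from 1 library, aged replicate 2, at 1.95 FPKM beside 16.8 to 27.2 FPKM elsewhere. Mapk12, p38 gamma, had the highest, 0.58, with 0.0799 FPKM in young replicate 1 and 1.29 to 1.53 FPKM elsewhere. Without aged replicate 2 the median of the MAP kinases was 0.15.

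All 26 upstream genes, from Ras and its activators to the MAP kinase kinases, were tested, 9 higher and 17 lower, with a median of -0.07 that was 0.03 without young replicate 2. Grb2, an adaptor of receptor tyrosine kinases, was 109 to 127 FPKM and Map2k1, the ERK kinase MEK1, 52.2 to 63.9 FPKM. Sos2, an activator of Ras, had the lowest difference, -0.93 (SE 0.31, limma adjusted p 0.740), at 6.21 and 9.04 FPKM in young pools against 3.26 and 3.70 FPKM in aged pools. Map3k11 had the highest, 0.58, with 28.6 FPKM in aged replicate 2 and 8.59 to 15.4 FPKM elsewhere.

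Of 11 kinases that MAP kinases activate, 10 were tested, 7 higher and 3 lower, with a median of 0.16 that was -0.01 without aged replicate 1 and -0.00 without young replicate 1. Mapkapk2, the p38 target MK2, which stabilises cytokine messages, was 364 and 338 FPKM in young pools against 391 and 396 FPKM in aged pools. Mknk2, which phosphorylates the cap-binding protein eIF4E, was 99.2 and 157 against 197 and 182 FPKM. Mknk1 had the highest difference, 0.63, but its groups overlapped, and Rps6ka3, an ERK-activated kinase, had the lowest, -0.41, at 26.0 and 25.4 against 17.3 and 21.1 FPKM.

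Of 19 other inhibitors of the pathway, 13 were tested, 5 higher and 8 lower, with a median of -0.29 that was nearer 0 with any library left out, at -0.20 without young replicate 1, -0.22 without young replicate 2, -0.17 without aged replicate 1 and -0.09 without aged replicate 2. Ier3, itself induced by stress and ERK, was 464 and 537 FPKM in young pools against 424 and 373 FPKM in aged pools, and Rasa3, a Ras and Rap inactivator, was 127 and 133 against 152 and 147 FPKM. Ptpn7, a tyrosine phosphatase of MAP kinases in blood cells, had the lowest difference, -0.57 (SE 0.29), with both aged libraries (4.63 and 5.27 FPKM) below both young ones (7.90 FPKM in mean). Spry2, an inhibitor of Ras signalling, was 9.74 FPKM in aged replicate 2 and 2.40 to 2.63 FPKM in the other libraries.

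Immediate early transcripts, which share inducing signals with Dusp1, Dusp2 and Dusp5 and can also be raised by tissue dissociation, summed to 4702 and 5085 FPKM in young pools against 4495 and 4859 FPKM in aged pools over 25 genes. Of 24 tested, 12 were higher and 12 lower, with a median of 0.00. Fos was 804 and 1245 FPKM in young pools against 784 and 1144 FPKM in aged pools, and Atf3 was 852 and 697 against 587 and 673 FPKM. Zfp36, tristetraprolin, which destabilises cytokine messages, had the lowest difference, -0.82 (SE 0.18, limma unadjusted p 0.00394 and adjusted p 0.740), at 312 and 298 FPKM in young pools against 172 and 172 FPKM in aged pools. Myc had the highest, 0.57, with overlapping groups.

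Of 12 cytokine and prostaglandin genes whose output p38 and JNK raise, 10 were lower and 2 higher with age by mean log2 value. Their median of -0.47 was 0.03 without young replicate 1 and -0.84 without young replicate 2. Ccl2, which recruits monocytes, was 1778 and 637 FPKM in young pools against 765 and 660.1 FPKM in aged pools, and Il1b was 1395 and 818 against 913 and 770.0 FPKM. Il12b had the lowest difference, -1.18 (SE 0.38), at 3.86 and 5.34 against 1.95 and 1.04 FPKM, and Il1a the highest, 0.48, with overlapping groups. Young replicate 1 thus stood apart in cytokines, summing to 4932 FPKM beside 2453 to 2798 FPKM. The summed phosphatase level, most of it Dusp1, was 1292 FPKM in young replicate 1 and 1287 FPKM in young replicate 2. Without Dusp1 it was 460 and 409 FPKM. Dusp2, Dusp3, Dusp4, Dusp5, Dusp10 and Dusp16 were higher in young replicate 1, and Dusp1, Dusp6, Dusp7 and Dusp22 in young replicate 2. limma called none of the genes of these 6 pathway lists, with 5 genes (Sos2, Zfp36, Il12b, Ccl3 and Ccl4) at an unadjusted p below 0.05. The lists held 9, 26, 10, 13, 24 and 12 tested genes in the order given above. Over all genes, 773 of 11656 were below that level, so the 5 are not read as a result about the pathway.

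**Figure D4:**
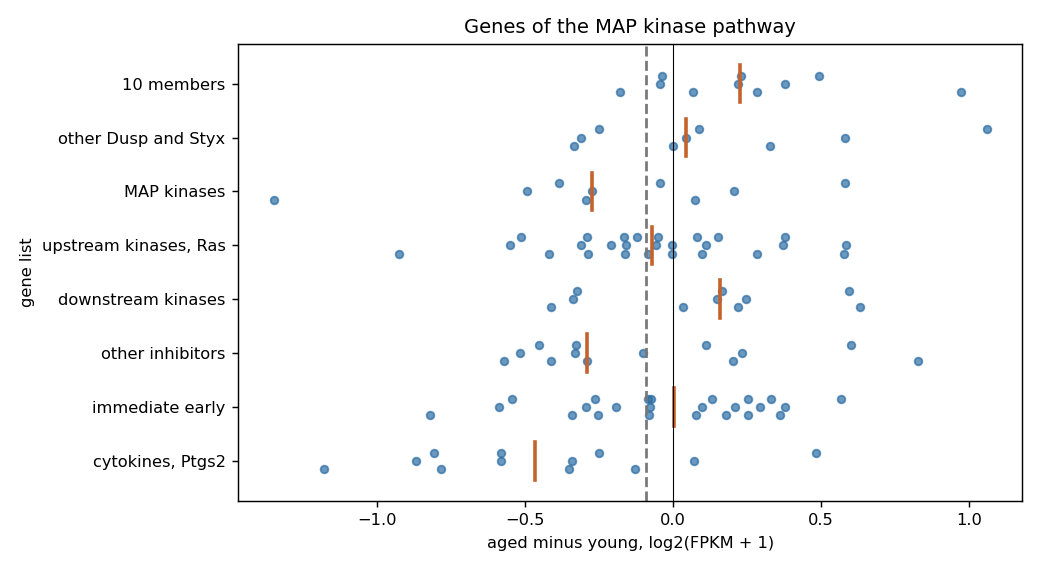
Aged minus young differences on the log2(FPKM + 1) scale for the tested genes of each list, 1 point per gene, with the list median as an upright bar and the median of all genes tested (-0.09) as a dashed line. The list medians ran from -0.47 for the cytokine list to 0.22 for the 10 phosphatases, and every list held genes on both sides of 0.

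The scaling of the table changed the direction of several members. In the values as deposited the read total used as divisor changes from gene to gene, and Dusp1 read 1530 and 893 FPKM in young pools against 883 and 1436 FPKM in aged pools, overlapping groups with a log2 difference of -0.05. Dusp5 had both aged libraries above both young ones in either form, with a difference of 0.85 as deposited. Of the 3 members whose aged libraries lay above the young ones after correction, Dusp5 was the only one that also did so as deposited. All 3 did so after a further scaling by the median of ratios, under which Dusp22, the member with both aged libraries below, overlapped between the ages. As deposited, the median over all genes moved from -0.09 to -0.31 and that of the members from 0.22 to -0.01, so that the members lay 0.30 above all genes, beside 0.32 after correction. That distance after correction was 0.17 without young replicate 2 and 0.18 without aged replicate 1.

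**Figure D5:**
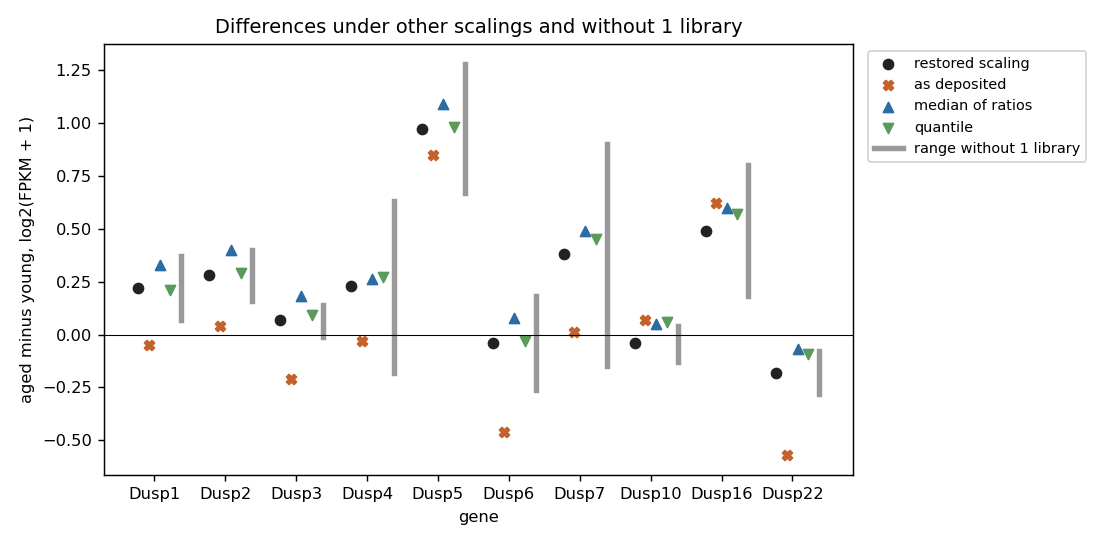
Aged minus young differences of the 10 genes on the log2(FPKM + 1) scale under 4 scalings (points), with the range without 1 library as a grey bar. Dusp5, Dusp16, Dusp2 and Dusp22 kept their direction throughout, while Dusp1, Dusp3, Dusp4, Dusp6, Dusp7 and Dusp10 crossed 0 in at least 1 setting.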

How the data were processed

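Gene expression was measured by RNA sequencing of 4 libraries of sorted nerve macrophages, 2 young and 2 aged. The authors deposited FPKM values for 24028 genes. Per the labels' protocols, RNA went through oligo-dT reverse transcription and multiple displacement amplification, so reads are not independent molecules, and the tools named, with no roles, in the submitters' processing notes are DESeq2, BWA 0.7.12 and bcl2fastq, and the build is mm10. The counting program, its strand setting and the annotation are not stated in these sources.

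The deposited FPKM values had been divided by 12 read totals in rotation over genes sorted as text by Entrez ID. The totals and their order were taken from earlier work on these values, which drew in part on GENCODE M21 exon lengths, and were not derived again. Each value was multiplied by its divisor, then divided by the total of its library. A check was made on the multiplied values, before the division by library totals. Of 2205 genes deposited above 0 and below 0.3 FPKM in both young libraries, 95.8% gave young ratios of small whole reads, against 0 as deposited. Such ratios had a denominator up to 12, with a relative tolerance of 1e-05. The check covered neither the library totals nor the aged libraries. Reads are the smallest whole numbers within 0.002 reads in all libraries, so they are lower limits. Columns were matched to samples by description, with 0 unmatched.

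Aged was tested against young with limma 3.58.1 (R 4.3.3) on log2(FPKM + 1), with empirical Bayes, an intensity trend, no replicate block, and Benjamini-Hochberg adjustment over 11656 genes with a mean of at least 1 FPKM. The script was tested on simulated data. All 10 members were named. So were the 2 most abundant genes and those with the lowest and highest difference of the pathway, other Dusp and macrophage lists. Schwann cell, fibroblast and endothelial markers were given as sums, with no gene named. A few other genes (Dusp8, Dusp9, Itgam, Ccl3, Ccl4, low MAP kinases and lymphocyte and neutrophil markers) were added after their values were seen. The members, lists and tests were chosen with earlier results of these data known. Lists were given as counts and medians, with no set test. Alternatives covered scaling, pseudocount, filter, trend, a replicate block and each library left out. Promoters came from RefSeq (GRCm38.p6), and gene spans and exon overlaps from GENCODE M21. Of 10 genes, 9 matched a promoter by gene ID.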

Additional observations from a re-analysis of the deposited data

How the results depend on the processing

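Dusp2, Dusp5, Dusp16 and Dusp22 kept their direction under all 13 alternatives, from 0.04 to 0.40, 0.67 to 1.28, 0.18 to 0.80 and -0.57 to -0.07 on the log2 scale. No member passed limma's threshold under any of them, and the lowest adjusted p of Dusp5 was 0.364. In the values as deposited, Dusp1 was -0.05, Dusp3 -0.21, Dusp4 -0.03 and Dusp10 0.07, and the median of the members was -0.01. With the median of ratios, Dusp6 was 0.08, Dusp10 0.05 and the median 0.30, and with quantile scaling Dusp10 was 0.06. With a pseudocount of 5 FPKM the median was 0.15. Without a single library the ranges were -0.01 to 0.14 for Dusp3, -0.18 to 0.63 for Dusp4, -0.26 to 0.18 for Dusp6, -0.15 to 0.90 for Dusp7, -0.13 to 0.04 for Dusp10, and 0.05 to 0.17 for the median. Over all genes limma called 0 to 15 higher and 0 to 4 lower without a single library, all calls being without aged replicate 1, and the 4 lower were Ndufa7, Mir6357, Nme3 and Snord14a. With a library left out, 1 age has 1 pool, and the spread comes from the pair of the other age alone, so the lone pool is assumed to vary like that pair. With the replicate number as a block, limma called 1 gene higher, Lars2, and none lower. These genes were named after their values were seen. The labels do not pair the pools, and the differences between replicates 2 and 1 in young and aged had a correlation of -3.84e-04 across 11656 genes. The cause of these changes was not tested. Depth limits Dusp4 most, with at least 17 reads in its lowest library. If 17 reads were independent, the counting error would be 24.3%. After amplification reads are not independent molecules, so 24.3% is no upper limit.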
